A study of Mus musculus with 4 samples.

Results

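Renal stroma and pericyte genes were followed here as 10 named genes: the transcription factors Foxd1, Meis1 and Tcf21, the retinoic acid enzyme Aldh1a2, the receptors Pdgfra and Pdgfrb, the mural cell genes Rgs5 and Acta2, and the matrix proteoglycans Dcn and Lum. They were chosen by symbol, as markers of cells that a sort for collecting duct and ureteric bud should leave behind, and their probes were found through the RefSeq accession that the array lists for each probe. All 10 had a probe on the array, with 15 probes and 33 spots between them, among 41174 probes in all. Of these 10, 8 were bright enough to enter the test of the genotypes, out of 16118 genes tested. Foxd1 and Lum were too dim for it and are described by their levels.

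The stroma of the developing kidney is the mesenchyme between the nephrons and the branching ureteric bud. Cortical stromal cells descend from Foxd1-expressing progenitors, which give rise to interstitial fibroblasts, pericytes, mesangial cells and smooth muscle. Stromal Aldh1a2 makes retinoic acid, a signal that keeps the receptor gene Ret on in the ureteric bud, and platelet-derived growth factor receptors recruit and maintain fibroblasts and the pericytes that wrap capillaries. None of these genes is a marker of collecting duct epithelium, and their level in sorted duct cells is therefore used as a measure of how clean a sort was.

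The arrays were 4 Agilent two-colour mouse whole-genome arrays, hybridised with labelled RNA from EGFP-positive duct and bud cells that were sorted at postnatal day 1. Knockout cells came from HoxB7CreEGFP+; PRR flox/flox mice, which lose the (pro)renin receptor (gene Atp6ap2) where the Hoxb7 promoter drives Cre. Wild-type cells came from CreEGFP+ PRR+/+ mice, so both genotypes carried Cre and EGFP, and stromal cells are not cells in which this Cre is meant to act. Each labelling used 0.5 µg of total RNA. Knockout RNA was in Cy5 (red) on 2 arrays, with wild-type pool 2 in Cy3 (green) on array 2 and a Cy3 channel meant for wild-type pool 1 on array 1. Of the other arrays, 1 held wild-type pool 2 in both dyes and 1 held wild-type pool 1 in both dyes (the self arrays). The labels call these samples pools and do not say how many animals a pool held or whether the 2 knockout arrays had separate RNA, so p-values below speak of array-to-array spread, part of which may be technical. Titles and descriptions disagree with the channel source names about which arrays hold knockout RNA and which pool is which. Groups follow the source names, and every knockout direction below would turn if the titles were right.

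Before the results, some channels stood apart. The Cy3 channel of knockout array 1 had 28 probes well above background, against 14935 to 18569 in Cy3 of the other arrays, and is not used. In Cy5, 20794 to 22713 probes were well above background on the knockout arrays and 18421 to 20025 on the wild-type arrays. Across genes, Cy5 of the knockout arrays and of pool 1 correlated at 0.987 to 0.996 with each other and at 0.944 to 0.949 with pool 2. Cy5 and Cy3 of the same array correlated at 0.993 on the pool 1 self array and 0.996 on the pool 2 self array. On knockout array 2 they correlated at 0.943. These values show which arrays held like RNA in both dyes and do not name the genotype of an RNA. Proximal tubule genes moved with pool 2: all 9 measured were at least 1.5-fold higher in Cy5 of pool 2 than of pool 1, with a median log2 difference of 2.80. The part of that difference in any stromal value below was not tested. All 22 duct and bud genes listed as markers of the sorted cells entered the test. Some of them were dim, such as Ret (6.65 to 7.02 in log2 Cy5) and Pax2 (6.77 to 7.06). Atp6ap2, the targeted gene, read 8.08 and 7.72 (log2 Cy5) in knockout, against 8.51 in pool 2 and 8.38 in pool 1. Both knockout arrays were lower, by a log2 difference of -0.54 ± 0.17 (SE) with a limma adjusted p of 0.801. Where its probe lies relative to the deleted part was not analysed here.

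In the cells as sorted, most of the 10 genes gave a signal well above background. In Cy5, 8 and 9 of the 10 did so in knockout (arrays 1 and 2), 7 in wild-type pool 2 and 10 in wild-type pool 1. In Cy3, where signals were weaker, 7 and 6 did so in pool 2 (knockout array and its own array) and 7 in pool 1. Levels below are log2 intensities after background correction and quantile normalization within each dye. A constant of 50 was added before the log, which shrinks differences between dim signals. Each knockout and wild-type value is 1 array, and levels of different genes come from different probes and are not compared. In bulk RNA, fewer stromal cells and less RNA per stromal cell cannot be told apart.

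**Figure D1:**
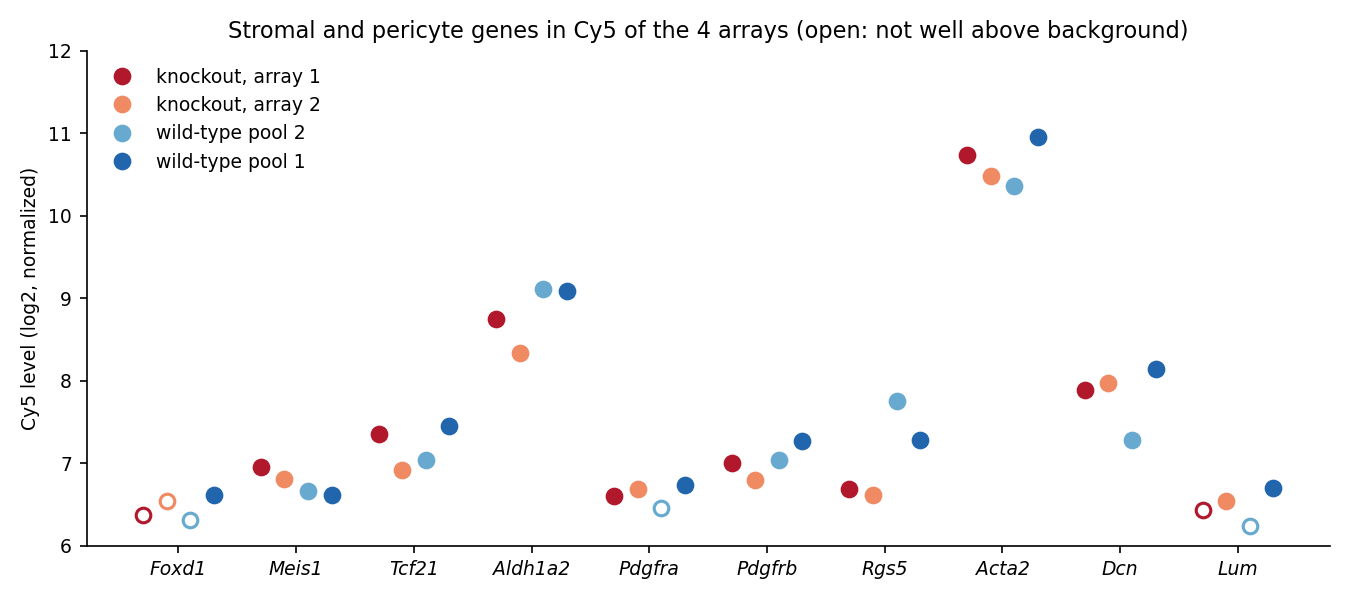
Normalized Cy5 level (log2, vertical axis) of the 10 stroma and pericyte genes in knockout arrays 1 and 2, wild-type pool 2 and wild-type pool 1, with 1 point per array and open points where the probe was not well above background. On both knockout arrays Rgs5 and Aldh1a2 lie below their level in either pool, and Dcn lies lowest in pool 2.

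Rgs5, a regulator that switches off G protein signalling in pericytes, was the gene of the set that differed most between genotypes. It read 6.69 and 6.61 in knockout, against 7.76 in pool 2 and 7.28 in pool 1. Both knockout arrays were below both pools, which were themselves apart. The knockout values were dim, close to the median of all probes on those arrays (6.58), though well above background. Before normalization, the background-subtracted Cy5 signal of Rgs5 was 58.9 and 14.9 in knockout, against 105.6 in pool 2 and 58.7 in pool 1. Knockout array 1 was thus level with pool 1 before the arrays were scaled to each other. On that unscaled measure it was brighter than pool 1 for every other tested member. Examples are Aldh1a2 (530.2 against 406.9) and Dcn (257.3 against 199.3). The knockout minus wild-type difference was -0.87 ± 0.19 (SE), a ratio of 0.549, with a 95% confidence interval from -1.36 to -0.37. Its unadjusted limma p was 0.00695 and its adjusted p 0.801, which does not pass. In Cy3, Rgs5 read 6.97 and 6.87 in pool 2 and 6.59 in pool 1, so the higher level of pool 2 was seen in both dyes. On the array that held knockout in Cy5 and pool 2 in Cy3, the log2 ratio was -0.82, while both self arrays, with 1 pool in both dyes, gave 0.0092 for pool 2 and 0.18 for pool 1. With the software's own processed signal, which adds no such constant, the Cy5 differences were larger, -2.46 against pool 2 and -1.65 against pool 1.

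Aldh1a2, which makes retinoic acid in renal stroma, followed the same order between genotypes. It read 8.75 and 8.34 in knockout, against 9.11 in pool 2 and 9.08 in pool 1. The pools were 0.029 apart on the log2 scale, and both knockout arrays lay below them, array 2 the further. The difference was -0.56 ± 0.17 (SE), a ratio of 0.680, with a 95% confidence interval from -1.01 to -0.11 and a limma adjusted p of 0.801. Without knockout array 2 it was -0.35. The shared array gave a ratio of -0.83, against 0.047 and -0.046 on the self arrays of pool 2 and pool 1. Centring each array on its median in place of quantile normalization turned the difference from pool 2 to 0.36, but that centring also moved the median of all genes in this comparison to 0.59, against 0.049 with quantile normalization. Under that centring the difference from both pools was -0.042 (adjusted p = 0.965), where all genes had 0.33.

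The sequences upstream of these 2 genes are printed because both read lower in knockout than in each pool. They are the 250 bases before the annotated start, 5′ to 3′ on the gene's strand, from RefSeq on GRCm38.p6. Rgs5 is at chr1:169655251-169655500 (plus strand) and Aldh1a2 at chr9:71215539-71215788 (plus strand).
Rgs5: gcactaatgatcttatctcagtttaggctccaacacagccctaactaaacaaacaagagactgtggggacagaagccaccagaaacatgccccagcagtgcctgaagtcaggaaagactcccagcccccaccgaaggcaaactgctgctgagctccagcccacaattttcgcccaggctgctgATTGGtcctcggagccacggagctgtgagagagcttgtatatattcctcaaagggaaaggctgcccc
Aldh1a2: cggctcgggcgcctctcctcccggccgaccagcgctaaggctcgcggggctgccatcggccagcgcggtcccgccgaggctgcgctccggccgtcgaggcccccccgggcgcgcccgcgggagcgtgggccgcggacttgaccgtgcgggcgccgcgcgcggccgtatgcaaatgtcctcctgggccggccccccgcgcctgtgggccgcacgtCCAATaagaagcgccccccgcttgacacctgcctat
Capitals mark CCAAT on either strand. Each holds 1 match, on the minus strand 67 to 63 bases before the start in Rgs5 and on the plus strand 36 to 32 bases before it in Aldh1a2. CCAAT occurs on either strand in 33.8% of 32851 RefSeq promoters in the same window. The searched motifs TATAAA (12.4% of promoters), GGGCGG (32.7%) and the CArG box (1.47%), read on both strands, had no match in either window. The CArG box was searched only as CCWWWWWWGG, where W is A or T. A match is a run of letters and not a site shown to be bound.

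Dcn, the collagen-binding proteoglycan decorin of fibroblasts, set the pools apart rather than the genotypes. It read 7.89 and 7.97 in knockout, against 7.28 in pool 2 and 8.15 in pool 1. Knockout lay between the pools, and pool 2 was lowest. The difference between genotypes was 0.21 ± 0.30 (SE) with a 95% interval from -0.57 to 1.00 and a limma adjusted p of 0.859. In Cy3, Dcn read 6.86 and 6.68 in pool 2 and 7.39 in pool 1, the same order as in Cy5. The shared array gave knockout over pool 2 a log2 ratio of 0.64, against self-array ratios of -0.11 for pool 2 and -0.19 for pool 1.

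Acta2, smooth muscle actin of vascular smooth muscle and activated pericytes, had the same ordering. Its brightest probe read 10.74 and 10.48 in knockout, against 10.36 in pool 2 and 10.95 in pool 1. A second probe, printed as 10 spots per array, read 8.12 and 7.84 in knockout, 7.69 in pool 2 and 8.44 in pool 1, so both probes placed knockout between the pools. The spots of that second probe had SDs of 0.16 and 0.11 in knockout, 0.11 in pool 2 and 0.14 in pool 1, which is technical spread within an array. Its log2 difference between the pools was -0.75, with 1 array each and no test. The remaining Acta2 probe was not well above background in any channel. The genotype difference of the brightest probe was -0.049 ± 0.23 (SE; 95% interval -0.66 to 0.56; limma adjusted p = 0.960). In Cy3 that probe read 9.11 and 9.10 in pool 2 and 9.29 in pool 1, a smaller gap than in Cy5. The pool 1 self array, where a ratio of 0 would be the same RNA read equally, gave Acta2 0.35, and the pool 2 self array gave -0.039.

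Tcf21, a helix-loop-helix factor of stroma and podocytes, read 7.35 and 6.92 in knockout, against 7.03 in pool 2 and 7.45 in pool 1. The groups overlapped, and array 2 of the knockout was the lowest of the 4. Its difference was -0.11 ± 0.22 (SE; 95% interval -0.69 to 0.48; limma adjusted p = 0.903). In Cy3, Tcf21 read 6.61 and 6.58 in pool 2 and 6.80 in pool 1. The upstream windows of Acta2 and Tcf21 are printed because both genes read lower in pool 2 than in pool 1 in each dye. Acta2 is at chr19:34255374-34255623 (minus strand) and Tcf21 at chr10:22820144-22820393 (minus strand), again from RefSeq on GRCm38.p6.
Acta2: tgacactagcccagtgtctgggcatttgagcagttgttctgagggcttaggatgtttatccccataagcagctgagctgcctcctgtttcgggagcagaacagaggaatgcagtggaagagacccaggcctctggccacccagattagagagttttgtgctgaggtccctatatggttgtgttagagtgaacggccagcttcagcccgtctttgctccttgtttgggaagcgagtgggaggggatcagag
Tcf21: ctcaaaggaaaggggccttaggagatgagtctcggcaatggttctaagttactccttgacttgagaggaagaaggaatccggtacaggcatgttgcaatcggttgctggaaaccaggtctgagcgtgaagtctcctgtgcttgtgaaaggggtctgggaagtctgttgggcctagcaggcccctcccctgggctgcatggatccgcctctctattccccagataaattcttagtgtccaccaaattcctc
None of the 4 motifs searched above has an exact match in these 2 windows, so no letter is in capitals. Acta2 holds ccctatatgg and ccttgtttgg, which each differ by 1 letter from the CArG box as searched and were not counted. Lack of an exact match says only that these letters are not in this window.

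Pdgfrb, the receptor of pericytes, mesangium and stroma, read 6.998 and 6.79 in knockout, against 7.04 in pool 2 and 7.26 in pool 1. Both knockout arrays were lower, array 1 by little against pool 2. The difference was -0.26 ± 0.15 (SE; 95% interval -0.64 to 0.12; limma adjusted p = 0.801), and it was -0.15 without knockout array 2, -0.14 without pool 1 and -0.43 without pool 2. In Cy3, Pdgfrb read 6.51 and 6.49 in pool 2, of which the first was not well above background, and 6.74 in pool 1. The measured ratio of pool 1 over pool 2 was 1.17 in Cy3 of the self arrays. Such ratios use the dim probe's own value, hold under this normalization only and are not strict minima. The shared array gave Pdgfrb 0.049, so the lower level in knockout was not seen there.

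Pdgfra, the receptor of interstitial fibroblasts, was dim throughout. Its probe, printed as 10 spots, read 6.61 and 6.69 in knockout, against 6.45 in pool 2, where it was not well above background, and 6.73 in pool 1. The measured ratio to pool 2 was 1.21 for pool 1 and 1.14 for the knockout mean, under this normalization. For knockout array 1 alone it was 1.11. With median centring these gaps were smaller, with log2 differences of -0.21 for pool 2 minus pool 1 and 0.10 for knockout minus pool 2. All genes then had medians of -0.54 and 0.59. The genotype difference was 0.055 ± 0.14 (SE; 95% interval -0.32 to 0.43; limma adjusted p = 0.926), with the groups overlapping. In Cy3 it was not well above background on any array, and its second probe was not well above background in any channel.

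Meis1, a homeobox factor of the interstitium, was the member with both knockout arrays above both pools in Cy5. It read 6.95 and 6.81 in knockout, against 6.66 in pool 2 and 6.61 in pool 1. The difference was 0.24 ± 0.12 (SE; 95% interval -0.066 to 0.55; limma adjusted p = 0.801), and it was 0.15 without knockout array 1. The shared array gave the opposite sign, -0.44, and Meis1 also read below 0 on both self arrays, -0.11 for pool 2 and -0.28 for pool 1. Its direction in knockout thus differed between the readings. In Cy3, Meis1 read 6.64 and 6.75 in pool 2 and 6.60 in pool 1.

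Foxd1 and Lum marked the lower limit of what the arrays could read. Foxd1 read 6.38 and 6.54 in knockout, 6.31 in pool 2 and 6.61 in pool 1, and only pool 1 was well above background. Its second probe was not so in any channel. The measured ratio of pool 1 was 1.11 over the knockout mean and 1.23 over pool 2. Lum, a proteoglycan related to decorin, read 6.43 and 6.54 in knockout, 6.24 in pool 2 and 6.70 in pool 1, and was well above background on knockout array 2 and in pool 1. For Lum the measured ratio of pool 1 over pool 2 was 1.38. Neither gene was well above background in Cy3.

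The wild-type pools were next set side by side. Of the 8 genes, 5 were lower in pool 2 than in pool 1 in Cy5. These were Dcn by -0.87, Acta2 by -0.59, Tcf21 by -0.42, Pdgfrb by -0.22, and Pdgfra. Pdgfra was not well above background in pool 2, and its measured ratio of pool 1 over pool 2 was 1.21. Aldh1a2 (0.029) and Meis1 (0.047) were nearly level, and Rgs5 was higher (0.48). Over all genes, 8803 of 16060 were lower in pool 2, so 5 of 8 is near that share. The median of the 8, with Pdgfra at its measured -0.28, was -0.25, against -0.042 over all genes. At least 1.5-fold lower were 2 of 8, Dcn and Acta2, where 7.13% of all genes were, and 0 of 8 were at least 1.5-fold higher, where 6.16% were. These are differences of 1 array against 1 array, with no test.

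Under the main processing, the Cy3 differences of Dcn, Acta2, Tcf21 and Rgs5 were smaller than in Cy5, and Pdgfrb was about as far apart. In Cy3 of the self arrays the differences were -0.53 for Dcn, -0.17 for Acta2, -0.18 for Tcf21 and -0.23 for Pdgfrb (not well above background in pool 2). They were -0.051 for Aldh1a2, 0.038 for Meis1 and 0.38 for Rgs5. With pool 2 read on the knockout array, Dcn was at -0.71, Acta2 at -0.18, Tcf21 at -0.22, Pdgfrb at -0.25, Aldh1a2 at 0.0035, Meis1 at 0.14 and Rgs5 at 0.29. So Dcn, Acta2, Tcf21 and Pdgfrb were negative in all 3 pairs of channels, Pdgfrb with a dim pool 2 value in 1 of them. Rgs5 and Meis1 were positive, Meis1 by little. Both Cy3 pairs share the pool 1 channel and the channels of a pool are repeat labellings, so these pairs are not independent. At least 1.5-fold lower were 0 of 7 (3.54% of all genes) in the self arrays and 1 of 7, Dcn, with the knockout array (3.41%), and 0 were higher (4.13% and 3.89% of all genes). The 2 Cy3 labellings of pool 2 differed from each other by -0.18 to 0.10 over the 7 genes. With the processed signal of the self arrays, Dcn (-1.53 in Cy3, -1.37 in Cy5) was further apart in Cy3. So were Tcf21 (-0.85, -0.72), Rgs5 (1.41, 0.82) and Pdgfrb (-1.77, -0.58), the last not well above background in Cy3 of pool 2. Acta2 (-0.17, -0.53) was not. Which dye showed the larger gap thus depended on the processing. Median centring put Rgs5 at -0.19 and Aldh1a2 at -0.80 in Cy5, where the median of all genes was then -0.54. The sign of Rgs5 and the level reading of Aldh1a2 between pools thus depend on the scaling, while Rgs5 was above the median of all genes under both.

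**Figure D2:**
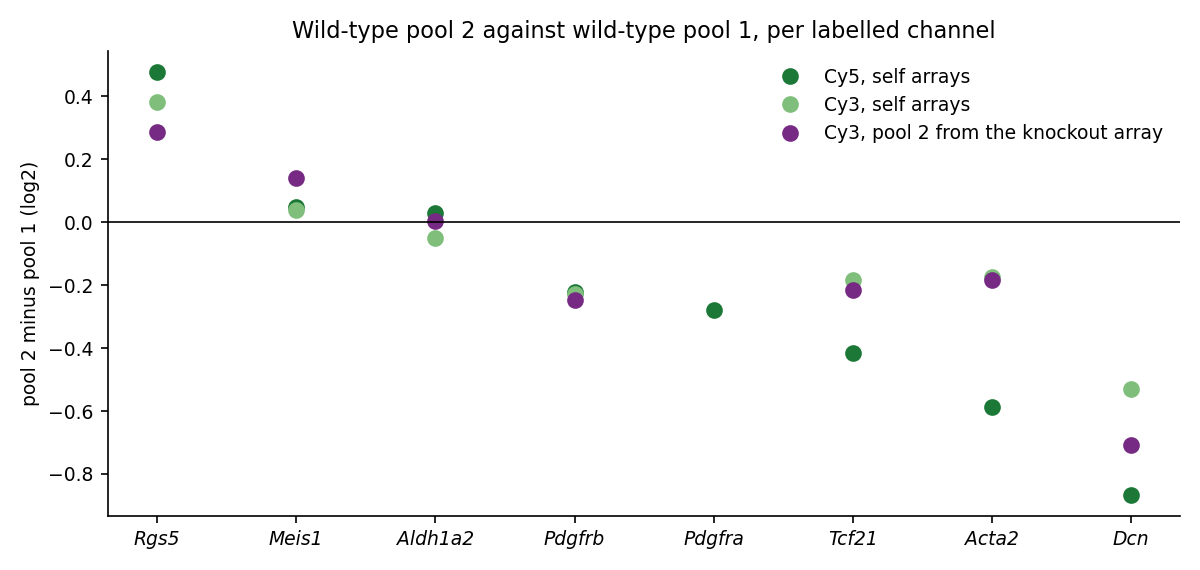
Difference of wild-type pool 2 minus pool 1 (log2, vertical axis) for the 8 tested genes in Cy5 of the self arrays, Cy3 of the self arrays, and Cy3 with pool 2 taken from the knockout array, 1 point per pair of channels. Dcn, Acta2, Tcf21 and Pdgfrb lie below 0 in each pair and Rgs5 above it, while Pdgfra has a point in Cy5 only.

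Knockout was next compared with each pool alone, because the pools disagree. Against pool 2, 5 of 8 genes were higher in knockout: Dcn by 0.65, Acta2 by 0.24, Meis1 by 0.22, Tcf21 by 0.10, and Pdgfra. For Pdgfra the measured ratio was 1.14, and pool 2 was not well above background. Rgs5 (-1.10), Aldh1a2 (-0.57) and Pdgfrb (-0.15) were lower. Against pool 1, 7 of 8 were lower: Rgs5 by -0.63, Aldh1a2 by -0.54, Pdgfrb by -0.37, Acta2 by -0.34, Tcf21 by -0.31, Dcn by -0.22 and Pdgfra by -0.084, while Meis1 was 0.27 higher. The 2 comparisons share the knockout arrays. Of all genes, 9140 of 16116 were higher than pool 2, near the share of 5 of 8, and 8071 of 16060 were lower than pool 1. Endothelial genes had a median of -0.014 against pool 2 and -0.32 against pool 1, where 7 of 8 were lower. Leukocyte genes had -0.070 and -0.16, with 8 of 8 lower than pool 1, and erythroid genes 0.39 and -0.37, with 3 of 4 lower than pool 1. Their part in the stromal values was not tested. Medians of the 8 stroma and pericyte genes, with Pdgfra at its measured value, were 0.15 against pool 2 and -0.33 against pool 1, where all genes had 0.049 and -0.00093.

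Few of these gaps were large. At least 1.5-fold lower than pool 2 was 1 gene, Rgs5 (5.5% of all genes), and at least 1.5-fold higher was 1 gene, Dcn (6.9%). At least 1.5-fold lower than pool 1 was 1 gene, Rgs5 (0.517%), and 0 were higher (1.19%). Aldh1a2 fell short of that line in both, with ratios of 0.673 and 0.687 against pool 2 and pool 1. On the shared array, Aldh1a2 and Rgs5 were at least 1.5-fold lower than pool 2 (5.03% of all genes) and Dcn at least 1.5-fold higher (6.49%), with a median of 0.0044 over the 8 genes.

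**Figure D3:**
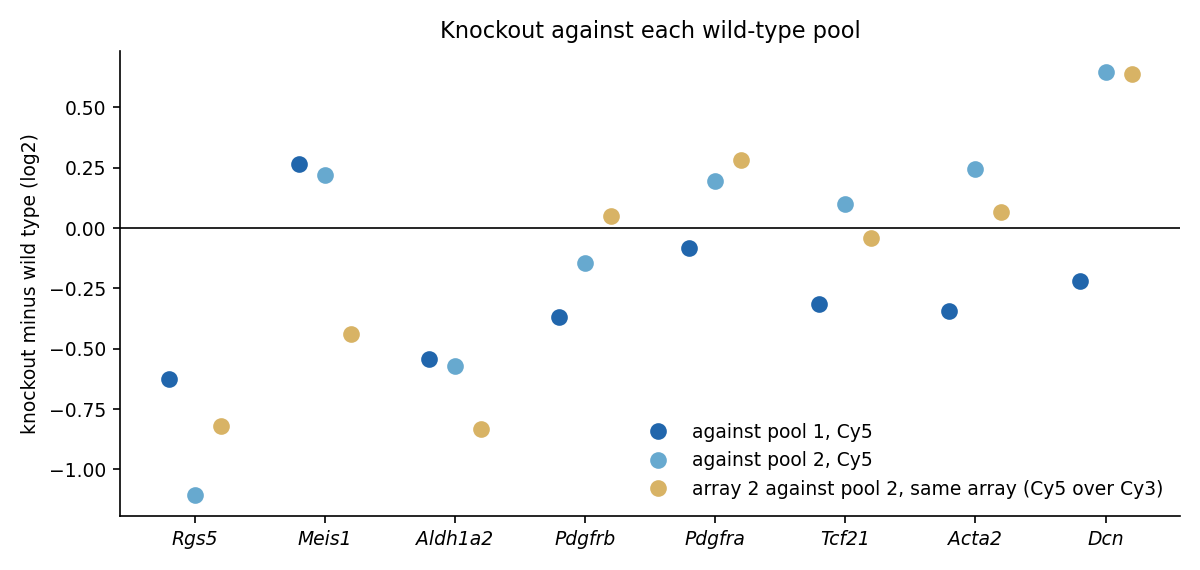
Knockout minus wild type (log2, vertical axis) for the 8 tested genes: mean of both knockout arrays against pool 1 and against pool 2 in Cy5, and knockout array 2 against pool 2 on the same array. Rgs5 and Aldh1a2 are below 0 in all 3 readings, Dcn and Acta2 change sign with the pool, and Meis1 changes sign on the shared array.

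Between the knockout arrays, 7701 of 16117 genes read lower on array 2 than on array 1. Of the 8 members, 6 did so. The differences were -0.44 for Tcf21, -0.41 for Aldh1a2, -0.26 for Acta2, -0.21 for Pdgfrb, -0.14 for Meis1 and -0.078 for Rgs5, while Dcn (0.079) and Pdgfra (0.081) were slightly higher. None of the 8 was 1.5-fold apart in either direction (0.211% of all genes lower, 0.273% higher). For Tcf21, Acta2 and Pdgfra this gap between knockout arrays exceeds in size the gap between genotypes.

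Over both pools together, 0 of the 8 genes passed the limma test at an adjusted p of 0.05, as did 0% of the 16118 genes. The smallest adjusted p was 0.801, and 688 genes, Rgs5 and Aldh1a2 among them, had an unadjusted p under 0.05. Both knockout arrays were below both pools for 3 of 8 genes, Rgs5, Aldh1a2 and Pdgfrb (17.3% of all genes), and above both for 1, Meis1 (22.3%). The median difference of the 8 was -0.078, against 0.024 over all genes. Leaving out pool 1 left 1 wild-type array, assumed to vary like the knockout arrays. Rgs5 was then at -1.06 (limma adjusted p = 0.00149) and Dcn at 0.63 (adjusted p = 0.00775), among 2547 genes called higher and 1886 called lower. These calls compare knockout with pool 2, the pool that stood apart. Leaving out pool 2 put Rgs5 at -0.74 (limma adjusted p = 0.259) and Dcn at -0.23, and neither passed.

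Other genes of stroma, pericytes and retinoic acid signalling gave the wider picture, and 0 of them passed the limma test. Of 28 other stroma and fibroblast genes, 22 were tested. Their median was -0.37 for pool 2 against pool 1, with 18 of 22 negative, 0.14 for knockout against pool 2 and -0.23 against pool 1, also with 18 of 22 negative. Of all genes, 8803 of 16060 were negative for pool 2 against pool 1, and 8071 of 16060 for knockout against pool 1. The lowest stroma and fibroblast gene for pool 2 against pool 1 was Mgp, matrix Gla protein, at -1.44, named after its value was seen. Knockout thus lay between the pools for most fibroblast genes, as it did for Dcn. Both knockout arrays were below both pools for 4 of the 22, close to the 17.3% of all genes. Of the erythroid genes, 3 of 4 were also lower in pool 2 than in pool 1, with a median of -0.76, and of the endothelial genes 7 of 8, with a median of -0.31. Genes of the sorted duct cells had a median of -0.37 in the same comparison, with 19 of 22 lower. The part of these in the stromal values was not tested.

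Among the named retinoic acid genes, Cyp26b1, Dhrs3 and Rarb were ordered like Aldh1a2, out of lists whose counts were near those of all genes. Cyp26b1, which breaks down retinoic acid, read 8.43 and 7.63 in knockout, against 8.74 in pool 2 and 9.11 in pool 1 (difference -0.90 ± 0.30 SE, limma adjusted p = 0.801). Dhrs3, which returns retinaldehyde to retinol, read 10.21 and 9.96 in knockout, against 10.55 and 10.51 in pools 2 and 1 (-0.44 ± 0.14). Rarb, a retinoic acid receptor whose own gene is induced by retinoic acid, read 7.75 and 7.54 in knockout, against 7.90 and 7.99 (-0.30 ± 0.13). Each was lower on both knockout arrays. Aldh1a3, another enzyme that makes retinoic acid, went the other way, with 10.78 and 10.81 in knockout against 9.61 and 10.48 in pools 2 and 1 (0.75 ± 0.30). Rxra, the partner receptor, was 0.17 ± 0.11 higher. Of 13 tested genes for the growth factor ligands and retinoic acid, both knockout arrays were below both pools for 3 (17.3% of all genes) and above for 3 (22.3%), and the median was 0.080.

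Of 20 other pericyte and smooth muscle genes, 15 were tested, and both knockout arrays were below both pools for 7 of them (17.3% of all genes) and above for 1 (22.3%). Cspg4, the pericyte proteoglycan NG2, was ordered like Rgs5, with 7.16 and 7.13 in knockout against 7.98 in pool 2 and 7.47 in pool 1 (-0.58 ± 0.20 SE, limma adjusted p = 0.801). The subunits of the nitric oxide receptor guanylate cyclase were both lower: Gucy1b1 by -0.41 ± 0.13, and Gucy1a1 by -0.29 ± 0.12. Mcam, an adhesion molecule of pericytes and endothelium, read 8.21 on both knockout arrays and 7.58 in pool 2 and was 0.64 ± 0.15 higher, with no usable value for pool 1. The list's median was -0.14. In the mesangium and renin cell list, Akr1b7, an enzyme of renin cells, read 7.25 and 7.60 in knockout, against 6.88 and 6.84 in pools 2 and 1 (0.56 ± 0.16), while Ren1 overlapped between groups (-0.18 ± 0.20).

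**Figure D4:**
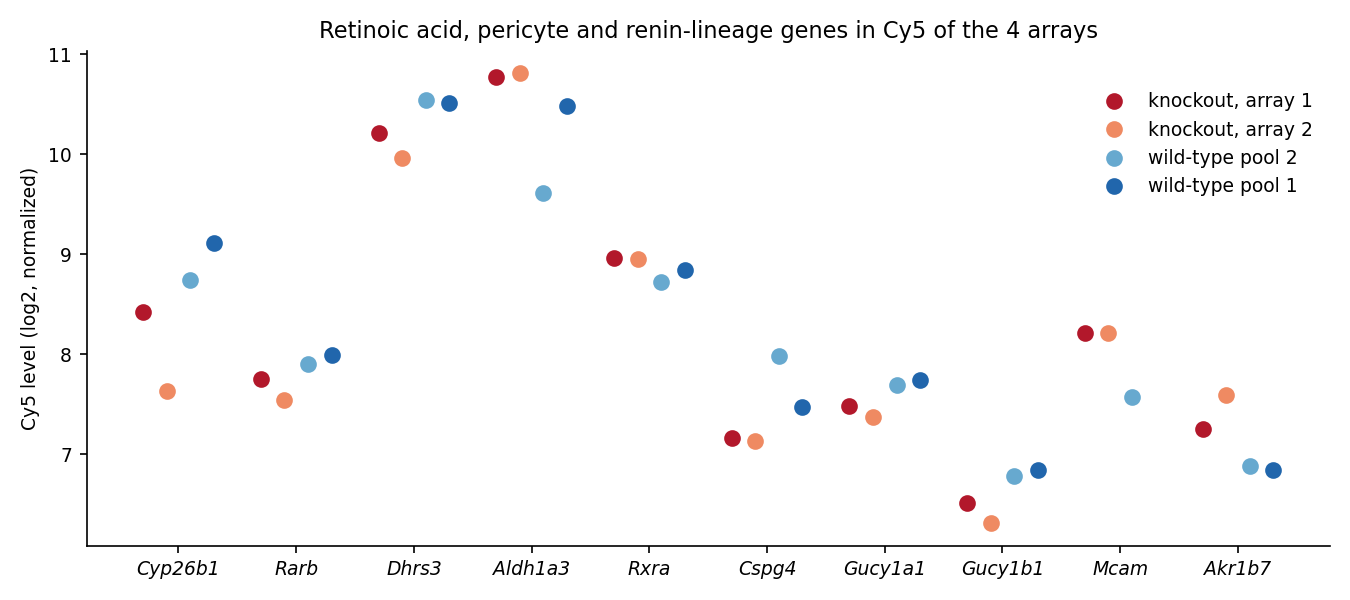
Normalized Cy5 level (log2, vertical axis) of 10 genes of retinoic acid metabolism, pericytes and renin cells in knockout arrays 1 and 2, wild-type pool 2 and wild-type pool 1, 1 point per array. Cyp26b1, Rarb, Dhrs3, Cspg4, Gucy1a1 and Gucy1b1 lie lower on both knockout arrays, and Aldh1a3, Rxra and Akr1b7 higher; Mcam has no point for pool 1.

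Members did not share 1 profile. Over the 7 usable channels, 6 members were well above background in every one, and the root mean square distance of each from their mean profile ran from 0.115 for Tcf21 to 0.329 for Rgs5, where a flat profile lay 0.113 away. Of 11017 genes compared, those near the members' mean included Caprin1 (0.028), Nectin1 (0.030), Plvap (0.031), Crtap (0.037) and Rpl7l1 (0.038), against a median of 0.175. Because the mean profile was itself nearly flat, being near it says little about a gene.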

How the data were processed

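Per the file headers, the deposited intensity of each spot in Cy3 and Cy5 (median over pixels, with a local background) came from Agilent Feature Extraction 10.7.3.1, which the authors also used for a processed signal and a log10 ratio of Cy5 over Cy3. No genome build is given in the sources used here. From these, background was corrected with normexp (offset 50) and, after control spots were left out, Cy5 and Cy3 were each quantile normalized between arrays in R 4.3.3 with limma 3.58.1. Flagged spots and a dark patch of 159 spots on the pool 1 array, holding no member, were left out. Spots of a probe were averaged, and the brightest probe stood for a gene. Genes entered if, for 1 genotype, both Cy5 channels were well above background, and were tested with lmFit and eBayes, two-sided, Benjamini-Hochberg adjusted over all of them, with 1 missing array allowed. The shared array's ratio used loess. Folds against a probe not well above background set the bright mean against that probe's own value or the lowest probe above background, whichever was higher. For each such fold given here the probe's own value was the higher. These folds therefore equal the measured ratios and are not strict minima. Of the probes, 22951 had a symbol. All 4 arrays were on 1 slide and 1 scan, and precision is limited by their number. The method was tested on simulated data.

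Members and lists were chosen with earlier results of these data known. Named were all members, the 4 genes of each other list with the smallest unadjusted p, Atp6ap2, and the 6 nearest profiles, and not all of these are reported here. Array numbers shared by the genotypes did not pair samples (correlation of deviations 0.035, with only 2 pairs). Alternatives covered background, normalization, filter, probe choice, dark patch, log ratio, block and each array left out.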

Additional observations from a re-analysis of the deposited data

How the results depend on the processing

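No gene passed the test under any setting except with a wild-type array left out. Leaving out each array in turn gave 0 to 2547 genes called higher and 0 to 1886 lower, a members' median of -0.31 to 0.14, 3 to 9 members negative, and 3 to 9 with both knockout arrays below both pools. Both counts of 9 came without pool 2, where knockout was set against pool 1 only and the filter admits dimmer genes. Shares over all genes are not given for these counts. Over these fits Acta2 ran from -0.34 without pool 2 to 0.25 without pool 1, Tcf21 from -0.36 without pool 2 to 0.11, Dcn from -0.23 without pool 2 to 0.63 without pool 1, and Pdgfra from -0.10 without pool 2 to 0.19 without pool 1. Tcf21 was at 0.095 without pool 1. Without knockout array 2, Acta2 was at 0.078, Tcf21 at 0.11 and the members' median at 0.047.

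Median centring turned Acta2 to 0.51, Pdgfra to -0.0040 and Tcf21 to 0.098 for knockout minus wild type, where all genes then had a median of 0.33. Members' medians became 0.047 for the genotypes and 0.35 for knockout against pool 2, where all genes had 0.33 and 0.59. Between knockout arrays the members' median became -0.30, where all genes had -0.18. Between pools it became -0.71 in Cy5 and -0.31 in Cy3, where all genes had -0.54 and -0.24. For 1 member both knockout arrays were below both pools. At least 1.5-fold lower were 0 members against pool 2, 2 between knockout arrays, and 5 (Cy5) and 1 (Cy3) between pools. This centring moved all genes too, and the shares of all genes at these lines are not given. The log ratio in place of Cy5 turned Meis1 to -0.082, Pdgfrb to 0.030 and Tcf21 to 0.0047, with 1 member below both pools; its control channel on knockout array 1 was nearly empty.

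With the processed signal, medians were -0.49 against pool 1, -0.42 between knockout arrays, -0.55 between pools in Cy5 and 0.058 on the shared array, and 3, 2, 1 and 3 members were at least 1.5-fold lower against pool 1, against pool 2, between knockout arrays and between pools in Cy3. With no background subtraction the pools' median was -0.30, with 2 members lower against pool 2 and 1 in Cy3. With offset 10, chosen after seeing the data, the pools' median was -0.43 and the shared array's -0.0096, with 2, 2, 1 and 1 members lower against pool 1, against pool 2, between knockout arrays and between pools in Cy3. With 7 channels normalized together the pools' median was -0.19, with 0 members lower against pool 1, 1 between pools in Cy5 and 1 in Cy3. The shared array's median was 0.030 with no filter and -0.041 with the stricter one. For these the cause was not tested, and shares of all genes are not given beside the counts of members. The replicate block left the members' median at -0.078 with 0 genes called. Rgs5 and Aldh1a2 were negative for knockout minus wild type under these settings, Aldh1a2 by only -0.042 with median centring. Dim signals limit Foxd1, Lum, Pdgfra and Meis1, and Rgs5 in knockout.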

Other observations

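Markers of the sorted duct cells themselves were read beside the stromal genes. Of 22 duct and bud genes, both knockout arrays were above both wild-type pools for 9 (22.3% of all genes) and below both for 4 (17.3%), with a median log2 difference of 0.21 and 0 passing the limma test. Aqp2, the collecting duct water channel, read 12.33 and 12.57 in knockout, against 11.50 in pool 2 and 11.93 in pool 1. Wnt7b, a duct signal to the stroma of the medulla, read 7.87 and 7.96 in knockout, against 7.49 in pool 2 and 7.45 in pool 1. Both were higher on both knockout arrays. The 4 genes below both pools were Calb1 (-0.57), Wnt11 (-0.55), Ret (-0.29) and Epcam (-0.057). The part of these duct and bud genes in the stromal values was not tested.

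Podocyte and nephron progenitor genes were mostly dim. Of 7 podocyte genes on the array 3 were tested, of 10 nephron progenitor genes 4, and the podocyte slit protein gene Nphs1 and the progenitor factor Six2 did not enter the test. The podocyte median was -0.28 and the nephron progenitor median -0.16. Of 10 leukocyte genes on the array 8 were tested, with a median of -0.16, and both knockout arrays were below both pools for 4 of them (17.3% of all genes). Proximal tubule genes had a median of -1.80 for knockout minus wild type, -3.20 against pool 2 and -0.31 against pool 1, so most of that difference lay in pool 2.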
